A study of Homo sapiens with 6 samples.

Results

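The regions described here are RNA polymerase I (Pol I) peaks of LNCaP cells treated with BMH-21 that lie beside or under a peak of RNA polymerase II (Pol II) from the same treatment. LNCaP is an established human prostate cancer cell line, and the small molecule BMH-21, a DNA intercalator, blocks Pol I. The peaks were chosen by their positions: a BMH-21 Pol I peak was taken when a BMH-21 Pol II peak overlapped it or lay within 1000 bp, measured from edge to edge on hg19. This gave 290 of 1932 BMH-21 Pol I peaks (15.0%), called near peaks below, and left 1642 others. Both sets rest on listed peaks only. Most running numbers of the BMH-21 peaks are missing from the lists, and a missing number may be a peak that was called and left out. A Pol I peak beside an unlisted Pol II peak is counted among the others. Each contrast of near and other peaks below depends on this. The share follows from the rule and is a description. The same distance rule took 18.1% of the 42547 Pol I peaks of DMSO-treated cells when applied to the DMSO Pol II list. The DMSO Pol II list is longer than the BMH-21 one of 11540 peaks, and a longer list raises such a share by itself. The shares are therefore not compared.

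The series holds 6 samples of chromatin immunoprecipitation with sequencing (ChIP-seq): for each of DMSO and 1 µM BMH-21, both given for 6 h, 1 library with a Pol I antibody (C-1), 1 with an antibody against the Ser5-phosphorylated C-terminal repeat of Pol II (4H8), and 1 input. The 2 input libraries were not analysed here. Each group is 1 library, so differences between treatments or antibodies come without replicate error and without p-values. Peaks of 1 library are not replicates, and neighbouring peaks are not independent. The 95% intervals given below cover counting over peaks only. They are exact Clopper-Pearson intervals for shares and order-statistic intervals for medians. Read depth is unknown, since the lists hold peaks and no reads.

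Pol I transcribes the precursor of the large ribosomal RNAs in the nucleolus, and Pol II transcribes messenger RNAs and many noncoding RNAs. Phosphorylation of Ser5 marks Pol II in the early phase of transcription, close to gene starts. At the 45S ribosomal DNA repeats Pol I is the transcribing enzyme, and hg19 leaves most of those repeats out. Whether any region below holds a copy of them was not tested. A position shared by both antibodies in bulk chromatin does not show that both enzymes sat on the same DNA molecule. Coordinates stand for the regions, because no gene annotation or genome of the hg19 build was used.

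Most near peaks touched the Pol II peak. Overlap was found for 184 of the 290 near peaks, which is 9.52% of the whole list, and the other 106 had a gap of 12 to 987 bp with a median of 462 bp (interval 340 to 548). Of these 106, 35 lay within 250 bp, 22 farther and up to 500 bp, 31 up to 750 bp and 18 up to 1000 bp. Overlap was thus the fullest class within 1000 bp. In each direction the sets were small parts of the Pol II list: 256 of 11540 BMH-21 Pol II peaks (2.22%, interval 1.96 to 2.50) had a BMH-21 Pol I peak within 1000 bp, and the near peaks had 230 distinct nearest Pol II peaks. Of these, 46 were nearest to more than 1 near peak, and up to 5 near peaks shared one.

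**Figure D1:**
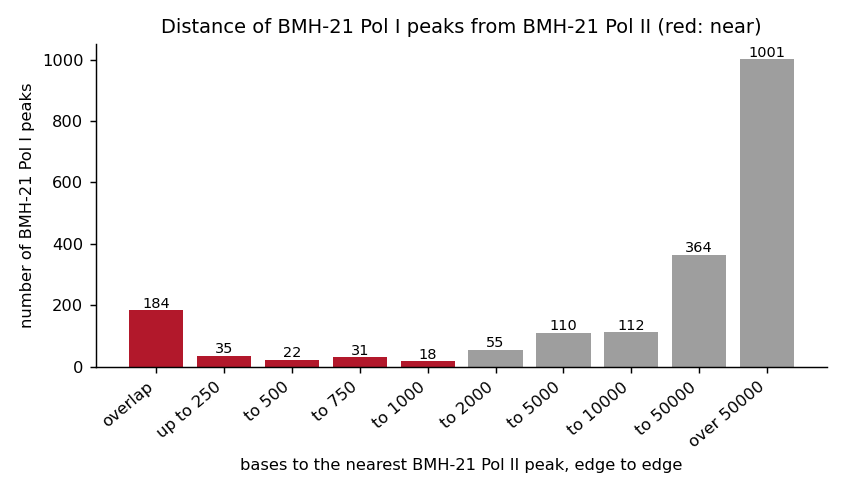
Number of BMH-21 Pol I peaks (y axis, from 0) by the number of bases to the nearest BMH-21 Pol II peak (x axis, classes of unequal width), with the near peaks in red and the others in grey. The overlap class holds 184 peaks, the 4 classes up to 1000 bp hold 18 to 35 each, and 1001 peaks lie over 50000 bp away.

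The threshold does not fall at a gap in this distribution: 18 peaks lay over 750 and up to 1000 bp away, and 55 over 1000 and up to 2000 bp. Just inside it were near peaks on chromosome 17 at 71282345 to 71282552 (gap 987 bp, score 71.75), chromosome 10 at 52271621 to 52271848 (972 bp, score 50.79) and chromosome 11 at 51592373 to 51593679 (958 bp, score 145.04). Just outside were peaks on chromosome 12 at 50157382 to 50158063 (gap 1001 bp, score 246.08), chromosome 17 at 80108188 to 80108412 (1037 bp, score 68.15) and chromosome 20 at 57486002 to 57486259 (1039 bp, score 79.27).

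Where the 2 polymerases overlapped, their peaks often had close edges. The choice of pairs by overlap, with the partner sharing most bases, keeps edges close by itself. Median widths were 276.5 bp for these Pol I peaks and 294 bp for their Pol II peaks. The values below are thus a description. The starts of overlapping peaks differed by a median of 87.5 bp (interval 71 to 106), the ends by 86 bp (interval 66 to 101) and the centres by 66.5 bp (interval 51.5 to 87). Both edges were within 100 bp in 71 of the 184 (38.6%, interval 31.5 to 46.0). The median share of the shorter peak held in common was 100%, and 166 of the 184 shared at least 50%. In 54 cases the Pol I peak lay inside the Pol II peak, in 38 it contained it, and the Pol II peak was the wider one in 107 and the narrower one in 76. Across the 184 pairs, widths went together (Spearman's rho 0.599) and scores did little (rho 0.0875). These correlations are across regions of the same pair of libraries, many of which share a locus, and are given as a description.

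**Figure D2:**
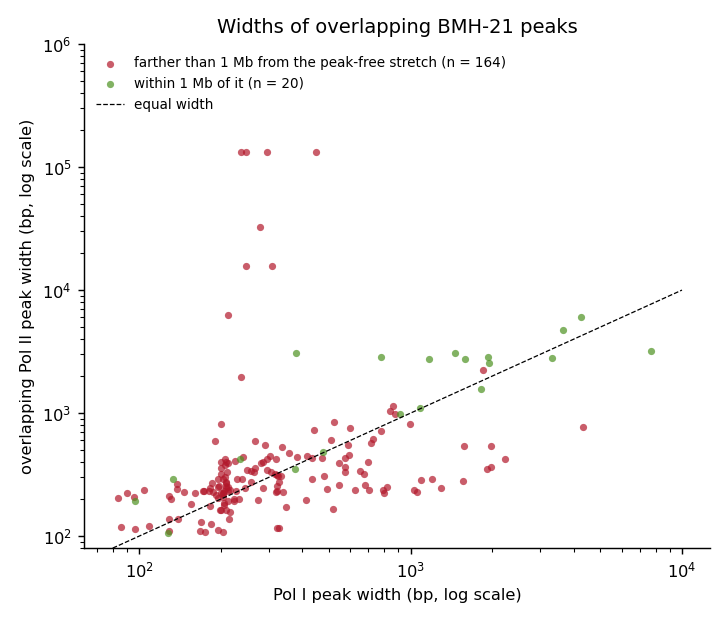
Width of each overlapping BMH-21 Pol I peak (x axis, bp, log scale) against that of the Pol II peak it shares most bases with (y axis, bp, log scale). Green points lie within 1 Mb of the chromosome's longest peak-free stretch (n = 20), red points farther away (n = 164), and the dashed line marks equal width. Both peaks are at least 1000 bp wide for 11 of the 20 green points and 1 of the red ones, and 7 red points sit under Pol II peaks of over 10 kb.

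Near peaks were wider and higher-scored than the other BMH-21 Pol I peaks. The score is taken from the deposited lists, where it is headed as a p-value and starts at 50, and it ranks peaks within a list. Its scale may differ between libraries, so a Pol I and a Pol II score set side by side each describe a peak in its own list. The median width was 276.5 bp (interval 242 to 308) for near peaks and 212 bp (interval 210 to 215) for the others, and the median score was 80.82 (interval 74.91 to 90.28) against 59.4 (interval 58.73 to 59.95). A score of 100 or more was held by 115 near peaks (39.7%, interval 34.0 to 45.5) and 202 others (12.3%, interval 10.8 to 14.0), against 16.4% of the whole list. Near peaks made up 90 of the 194 peaks in the top 10% of scores (46.4%, interval 39.2 to 53.7), 58 of the top 100 and 8 of the top 10.

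Width and membership are linked by construction, because a wider peak reaches more neighbours. Near peaks were 10.5% of peaks under 300 bp (158 of 1498), 27.6% of those from 300 bp to under 1000 bp (96 of 348) and 41.9% of those of 1000 bp or more (36 of 86). The widest class held 4.45% of the whole list. Within peaks under 300 bp, the median score was still 66.6 (interval 62.64 to 69.83) for near peaks and 57.4 (interval 56.77 to 58.02) for the others. In the middle class it was 111 (interval 92.66 to 140.4) against 97.7 (interval 88.31 to 103.77), intervals that overlap. Among peaks of 1000 bp or more it was 580 (interval 223.8 to 684.4) against 113 (interval 87.23 to 161.8). Near peaks thus had the higher median score in all 3 width classes.

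**Figure D3:**
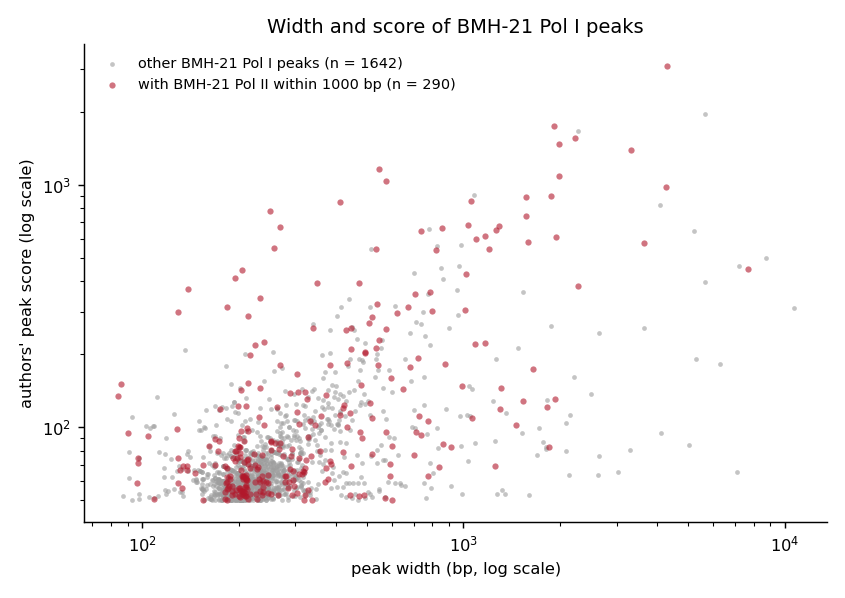
Width (x axis, bp, log scale) and the authors' score (y axis, log scale) of each BMH-21 Pol I peak, with near peaks in red (n = 290) and the others in grey (n = 1642). Near peaks are 30 of the 39 peaks with a score of 500 or more.

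The near peaks were strongly grouped. With peaks joined where no gap exceeded 10 kb, the 290 near peaks fell into 182 loci: 139 held 1 near peak, 24 held 2, and 19 held 3 or more. These 19 loci held 103 near peaks (35.5%, interval 30.0 to 41.3). The median gap to the next BMH-21 Pol I peak, near or not, was 1617 bp for near peaks (interval 705 to 11176) and 261161 bp for the others. Another Pol I peak lay within 1000 bp of 134 near peaks (46.2%, interval 40.4 to 52.1) and of 259 others (15.8%, interval 14.0 to 17.6), against 20.3% of the list.

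The width and score of near peaks differed between grouped and scattered ones. In the 19 loci the median width was 447 bp (interval 383 to 547) and the median score 152.71 (interval 119.77 to 223.97). The 187 near peaks in loci of 1 or 2 had a median width of 226 bp (interval 212 to 247), which overlaps the interval of the peaks that were not near, and a median score of 68.98 (interval 64.88 to 74.87), which does not. Outside the 19 loci, near peaks had a larger share of wide peaks than the others, which kept their own grouped peaks. Width and membership are linked by construction here too. Of the 187, 14 were 1000 bp or wider (7.49%, interval 4.15 to 12.2), against 50 of the others (3.05%, interval 2.27 to 4.00). Peaks under 300 bp made up 69.0% of the 187 (interval 61.8 to 75.5) and 81.6% of the others (interval 79.6 to 83.5). Of the 10 near peaks with the highest score, 8 lay in these loci and 9 overlapped Pol II.

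The 19 loci were of 3 kinds by position. On the chromosome arms, away from both ends and from the longest stretch without a listed peak, lay 14 loci on 9 chromosomes with 70 near peaks. Their median score was 240 (interval 180.54 to 312.3), their median width 367 bp (interval 288 to 474), and 49 of the 70 were in the top 10% of the Pol I list. The median centre-to-centre spacing within a locus ran from 468.5 to 1499.5 bp. Their 41 nearest Pol II peaks had a median score of only 70.4 (interval 62.64 to 121.41) and a median width of 290 bp. In rank, these Pol I peaks had a median at the 95.2 percentile of their list and the Pol II peaks at the 68.6 percentile of theirs.

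The locus with the most near peaks on a chromosome arm was on chromosome 5, at 71489641 to 71505431, with 12 near peaks over 15.8 kb, of which 7 overlapped Pol II. Its highest-scored peak, at 71502230 to 71504213, had a width of 1984 bp and a score of 1089. The lowest, at 71494609 to 71494808, was 200 bp wide with a score of 51.94. Near peaks covered 64.3% of this locus. The 9 BMH-21 Pol II peaks there were 228 to 541 bp wide with scores of 52.12 to 124.01. Their median width was 319 bp, against 624.5 bp for the near peaks. DMSO Pol II had 2 listed peaks in the locus, and 1 of them, at 71504585 to 71504949, lay inside the last near peak.

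On chromosome 17, between 42985312 and 42992840, 6 near peaks formed a ladder of short separate regions that covered 23.2% of 7.53 kb. From left to right their scores were 115.25, 782.41, 342.61, 547.22, 298.15 and 1035.69, and their widths 304, 250, 232, 258, 129 and 576 bp. Pol II peaks sat on 4 of them, and at 2 the edges nearly coincided. The Pol I peak at 42990553 to 42990810 faced a Pol II peak at 42990547 to 42990823, and that at 42991084 to 42991212 faced one at 42991084 to 42991222. A Pol II peak of 1561 bp with a score of 782.91 lay 570 bp left of the first near peak. No DMSO peak was listed within 1000 bp of this locus. Whether the edges of these short regions match exon edges was not tested, here or in the loci that follow, and the peak lists alone cannot tell chromatin from fragments of spliced transcripts carried into a library.

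A similar ladder lay on chromosome 8 at 27455515 to 27466654, where 6 near peaks covered 14.8% of 11.1 kb with scores of 180.54 to 672.66. Its last near peak, at 27466450 to 27466654, was met by a Pol II peak at 27466448 to 27466634. The near peak at 27463865 to 27464059 was met by one at 27463866 to 27464071. Chromosome 10 had 4 near peaks at 17275580 to 17279640, with scores of 392.63, 287.61, 152.71 and 1158.81. The last of these, at 17279094 to 17279640, was 547 bp wide and overlapped a Pol II peak of 390 bp with a score of 309.95. Neither locus held a DMSO peak.

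In other loci the near peaks covered most of the length. On chromosome 18, 8 near peaks covered 87.9% of the stretch from 24432208 to 24436122, with scores of 72.69 to 305.99, beside only 2 Pol II peaks with scores of 62.96 and 67.59. On chromosome 2, 4 near peaks covered 97.3% of 217536829 to 217541105, beside 6 Pol II peaks of 244 to 375 bp. The one at 217538747 to 217540655 (1909 bp) had a score of 1745.42, the second highest of all near peaks. On chromosome 9, at 87425729 to 87430086, 4 near peaks covered 79.4% of the stretch, with scores of 536.62, 430.49, 123.74 and 542.76, beside 2 Pol II peaks of 253 and 289 bp. In all 3 of these loci the widest near peak was wider than every Pol II peak.

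The highest-scored near peak of all, on chromosome 5 at 82832792 to 82837096, was 4305 bp wide with a score of 3100. This value may be a ceiling of the score, since 14 BMH-21 Pol II peaks have exactly 3100 too and only 1 peak, also of Pol II, lies above it at 3120.65. The near peak contained a Pol II peak of 772 bp with a score of 143.19, and 2 more near peaks lay beside it. The locus on chromosome 11 at 2152049 to 2154918 had 3 near peaks, of which the middle one was 2226 bp wide with a score of 1553.34. Of the 6 Pol II peaks there, 1 had a score of 1097.46 and a width of 1145 bp. On chromosome 5 at 146770377 to 146777456, 4 near peaks reached a score of 1470.68, at 146771027 to 146773012 (1986 bp), beside Pol II peaks of at most 120.32.

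The 4 remaining chromosome 5, 6 and 17 loci were smaller or weaker. On chromosome 17 at 71279813 to 71282552, 5 near peaks had scores of 71.75 to 269.39. On chromosome 5 at 38480441 to 38482352, 4 near peaks had scores of 54.22 to 302.4. On chromosome 6 at 72011199 to 72013139, 4 near peaks had scores of 51.56 to 360.85 around a single Pol II peak of 238 bp. The lowest top score of the arm loci, 110.64, was on chromosome 5 at 14651865 to 14653091, where the single Pol II peak had a score of 206.4. Chromosome 5 thus held 5 of the 19 loci.

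**Figure D4:**
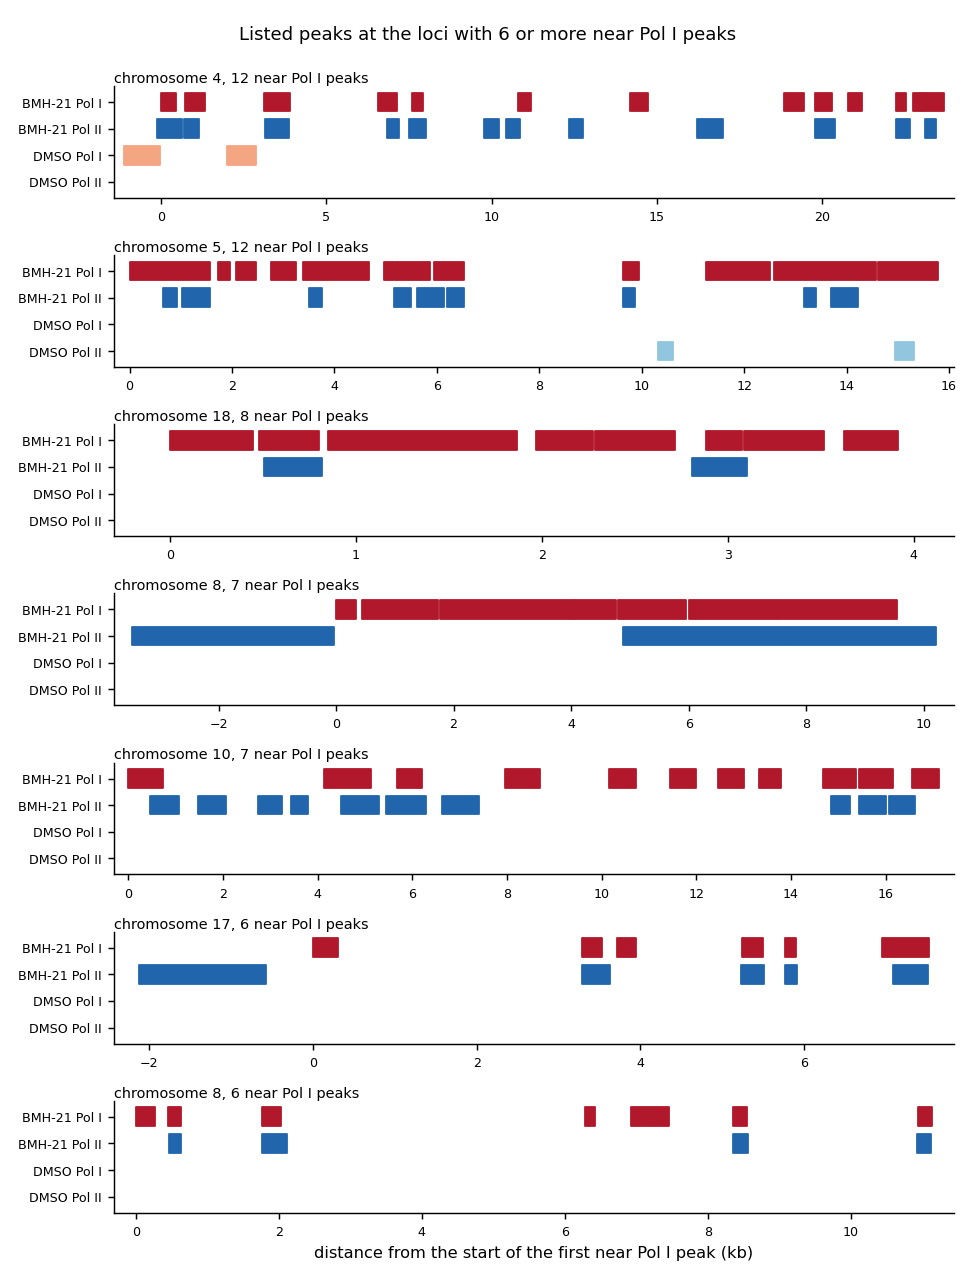
All listed peaks of the 4 libraries in and within 1 kb of the 7 loci with 6 or more near peaks. The x axis is the distance in kb from the start of the first near peak, each bar is 1 peak drawn to its width, and rows are the libraries. On chromosome 17, 4 of the 6 near peaks have a Pol II bar under them, and DMSO peaks appear only in the chromosome 4 and chromosome 5 panels.

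Beside the ends of chromosomes 4 and 10 lay 2 loci of another kind, with 19 near peaks. The long-arm ends of these chromosomes are known to carry near-identical repeats, so reads of one may have been placed on the other. On chromosome 4, 12 near peaks lay between 190989093 and 191012763, and on chromosome 10, 7 lay between 135478210 and 135495349. These were 29.2 kb and 28.2 kb from the last listed peak of the chromosome. Their median score was 83.6 (interval 62.86 to 109.46), from 50.15 to 148.79 and with a median at the 78.0 percentile of the Pol I list, and their median width 591 bp (interval 421 to 713). For the 16 nearest Pol II peaks the median width was 561.5 bp (interval 425 to 732) and the median score 69.0, with a median at the 66.5 percentile of the Pol II list, and 15 of the 19 near peaks overlapped one. Over the series' chromosomes, 24 near peaks (8.28%, interval 5.37 to 12.1) and 70 others (4.26%, interval 3.34 to 5.36) lay within 1 Mb of the first or last listed peak, against 4.87% of the list. These 2 loci supplied 19 of the 24.

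Every chromosome has a longest stretch without any listed peak. On most of them it may be the assembly gap at the centromere, which was not checked against a genome. It was only 0.787 to 1.87 Mb long on chromosomes 13, 14, 15 and 22, and 30.0 Mb on chromosome Y, which gave 1 of the near peaks counted below. Beside the longest stretch, near peaks were wide for both antibodies. Within 1 Mb of this stretch lay 33 near peaks (11.4%, interval 7.96 to 15.6) on 11 chromosomes and 118 others (7.19%, interval 5.98 to 8.54), against 7.82% of the list. The stretch is bounded by listed peaks by definition, so some peaks beside it are given by the construction. The 33 near peaks had a median width of 1084 bp (interval 473 to 1536), while the 118 others there had 463.5 bp (interval 348 to 611), and the 257 near peaks farther away 252 bp (interval 233 to 286). The Pol II peaks nearest to the 33 were also wide, with a median of 1571 bp (interval 742 to 2806), against 375 bp (interval 320 to 464) for the 118 others. Other Pol I peaks farther from the stretch had a median of 210 bp (interval 209 to 212), so the others were wider beside it too. A wide peak of either antibody meets the distance rule more easily, which by itself raises the widths of near peaks and of their Pol II peaks.

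The 3 loci of this kind with 3 or more near peaks held 14 of the 33. On chromosome 17, near peaks at 22251130 to 22258833 (7704 bp, score 448.91) and 22258886 to 22262214 (3329 bp, score 1398.38) overlapped Pol II peaks of 3193 and 2806 bp. On chromosome 8, 7 near peaks covered 97.8% of 46847106 to 46856646, with scores of 76.18 to 607.11 and the widest at 46848871 to 46851147 (2277 bp) and 46854707 to 46856646 (1940 bp), and the Pol II peaks there were 2552 to 3440 bp wide. On chromosome 4, 4 near peaks lay at 49280595 to 49294771, 2 under a Pol II peak of 3059 bp (score 315.53) and 2 under one of 2866 bp (score 140.31). Single near peaks of this kind were on chromosome 2 at 92305145 to 92309401 (4257 bp, score 977.97) and chromosome 16 at 46431979 to 46435633 (3655 bp, score 577.17), each overlapping a still wider Pol II peak. Of the 10 widest near peaks, 6 lay beside the stretch. Sequence next to centromeres is highly repeated, and how reads with several matches were placed is not given in the sources used here.

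A small set of near peaks lay under very wide Pol II peaks. Overlap with a Pol II peak of over 10 kb was seen for 7 near peaks, all narrow and low-scored. On chromosome 21, 4 of them, of 238 to 447 bp with scores of 53.85 to 68.98, lay under a Pol II peak of 133089 bp that ran from 17783740 to 17916828. On chromosome 1, near peaks at 84629713 to 84629959 (score 58.87) and 84630488 to 84630795 (score 74.91) lay under a Pol II peak of 15608 bp with a score of 3100. On chromosome 5, a near peak at 107634886 to 107635163 (score 59.78) lay under one of 32498 bp with a score of 2225.08. Here the Pol I peaks were narrow and the Pol II peaks wide.

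Runs of Pol II peaks, taken as 10 or more with no gap over 10 kb, were met by 29 near peaks (10.0%, interval 6.80 to 14.0), against 1.5% of the list, a share that the rule itself raises since no other peak can qualify. The 19 near peaks by the ends of chromosomes 4 and 10 were among these 29. The other 10 lay in loci of 1 or 2 near peaks.

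Without another near peak within 10 kb, but high in score, were 2 near peaks. They lay on chromosome 12 at 119631495 to 119632548 (1054 bp, score 858.32) and chromosome 2 at 217559115 to 217560206 (1092 bp, score 599.04). Neither was isolated on a larger scale. The first had another BMH-21 Pol I peak 13938 bp away, and the second lay to the right of the chromosome 2 locus of 4 near peaks that ends at 217541105. Both overlapped short Pol II peaks, of 227 and 288 bp with scores of 52.82 and 61.58. On chromosome X, the near peak at 13789717 to 13791595 (1879 bp, score 896.27) was the only one of the 10 highest-scored without overlap, with a gap of 311 bp to a Pol II peak of 238 bp.

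Every one of the 24 chromosomes held a near peak, but unevenly. The share of a chromosome's BMH-21 Pol I peaks that were near had a median of 11.9% over chromosomes. It was 26.7% on chromosome 18 (12 of 45, interval 14.6 to 41.9), 25.7% on chromosome 21 (9 of 35, interval 12.5 to 43.3), 25% on chromosome 17 (22 of 88, interval 16.4 to 35.4) and 24.9% on chromosome 5 (48 of 193, interval 18.9 to 31.6). At the other end it was 3.57% on chromosome 22 (1 of 28, interval 0.0904 to 18.3), 4.32% on chromosome 7 (6 of 139, interval 1.60 to 9.16) and 4.82% on chromosome 3 (4 of 83, interval 1.33 to 11.9). The intervals of chromosomes 5 and 17 did not overlap those of chromosomes 3 and 7, while those of chromosomes 18 and 22 did overlap.

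Grouping carried part of this order. Chromosome 5 held 48 near peaks in 24 loci, with 26 of them in its 5 loci of 3 or more, and chromosome 18 held 12 in 4 loci, with 8 in 1 locus. Chromosome 21 held 9 near peaks in 8 loci and chromosome 16 held 11 in 11 loci, none of 3 or more. On chromosome 21, however, 4 of the 9 lay under a single Pol II peak of 133089 bp. Chromosome 7, with the second longest BMH-21 Pol I list, had 6 near peaks in 4 loci.

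**Figure D5:**
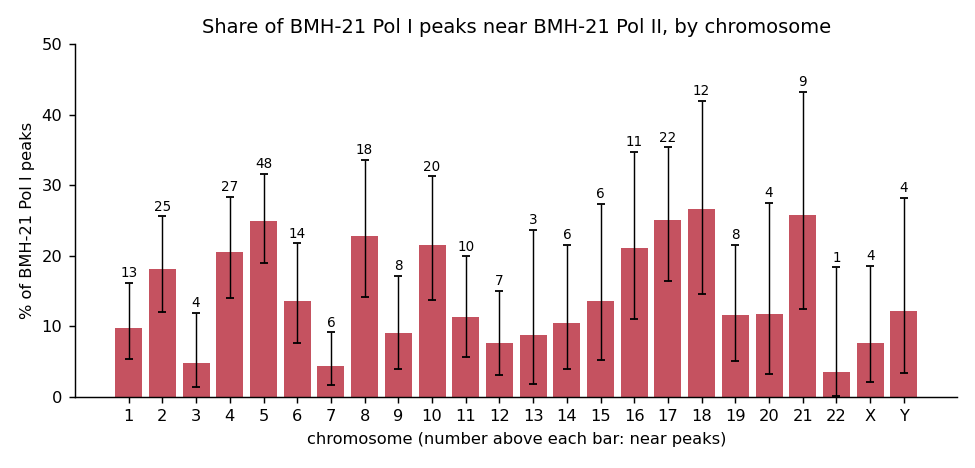
Share of each chromosome's BMH-21 Pol I peaks that lie near BMH-21 Pol II (y axis, percent, from 0), by chromosome (x axis), with exact 95% intervals as error bars and the number of near peaks above them. Chromosomes 5 and 17 stand at 24.9% and 25%, and chromosomes 3 and 7 below 5%. The intervals treat grouped peaks as independent and do not account for the number of Pol II peaks per chromosome.

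Near peaks had fewer DMSO Pol I neighbours than the other BMH-21 Pol I peaks. A DMSO Pol I peak lay within 1000 bp of 20 near peaks (6.90%, interval 4.26 to 10.5) and of 223 others (13.6%, interval 12 to 15.3), against 12.6% of the list. Overlap with DMSO Pol I was 0 in both, as the 2 Pol I lists share no position anywhere, so only neighbours could be counted. Another BMH-21 Pol I peak lay within 1000 bp of 46.2% of near peaks and 15.8% of the others, which leaves less room for a DMSO one. With 1 peak per locus the share of near peaks was 7.69% (interval 4.27 to 12.6). Without loci of 3 or more near peaks it was 7.49% (interval 4.15 to 12.2). Both intervals reach into that of the others. The difference was not tested, since each list is 1 library. For DMSO Pol II the pooled shares were close: 27 near peaks (9.31%, interval 6.23 to 13.3) and 141 others (8.59%, interval 7.28 to 10.0) lay within 1000 bp, against 8.70% of the list. The count differed with overlap of BMH-21 Pol II, a split that uses the membership rule's own values. A DMSO Pol II peak lay within 1000 bp of 9 of the 184 that overlapped BMH-21 Pol II (4.89%, interval 2.26 to 9.08) and of 18 of the 106 that did not (17.0%, interval 10.4 to 25.5). The 2 Pol II lists share no position, so bases under a BMH-21 Pol II peak cannot hold a DMSO one. The lists themselves thus leave less room at the 184, and the difference was not tested.

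Direct overlap with a DMSO Pol II peak was found for 6 near peaks (2.07%, interval 0.763 to 4.45) and 64 others (3.90%, interval 3.01 to 4.95), against 3.62% of the list. All 6 were among the 106 near peaks that did not overlap BMH-21 Pol II, and 0 of the 184 overlapping ones touched a DMSO Pol II peak, a count that 3 peaks would bring to 1.63%. That the 2 Pol II lists share no position leaves less room for such an overlap. Of the 6, the highest-scored was the last near peak of the chromosome 5 locus of 12, at 71504261 to 71505431, with a score of 615.01. The others had scores of 62.88 to 165.43.

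Few loci of either size held a listed DMSO peak, and few single peaks of the whole list touch one. Over all 1932 BMH-21 Pol I peaks, 3.62% overlapped a DMSO Pol II peak and 0 a DMSO Pol I peak. The counts below are therefore not read as a trait of near peaks. In 17 of the 19 loci of 3 or more near peaks (89.5%, interval 66.9 to 98.7), neither DMSO list had a peak between the first and the last near peak. The same held for 158 of the 163 loci of 1 or 2 (96.9%, interval 93.0 to 99.0), which were shorter, with a median length of 0.228 kb against 5.42 kb, and so had less room for a peak. The exceptions among the 19 were the chromosome 5 locus of 12 near peaks, with 2 DMSO Pol II peaks, and the chromosome 4 end, with 1 DMSO Pol I peak. Each peak carries a running number, and a number missing from a list may be a peak that was called and then left out. In 16 of the 19 loci no BMH-21 Pol I number was missing and in 17 no BMH-21 Pol II number. In all 19, 3 Pol I numbers were missing beside 110 listed peaks. Over the whole lists most numbers are missing. BMH-21 Pol I numbers reach at least 15007 for 1932 peaks, and BMH-21 Pol II numbers at least 47868 for 11540 peaks. Missing DMSO numbers are not counted here. Where DMSO numbers are missing, a DMSO peak may have been removed from the list, so loci without a listed DMSO peak are not shown to lack the polymerase in DMSO cells.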

How the data were processed

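ChIP-seq was carried out in 6 samples of LNCaP cells, and 4 deposited peak lists, 1 per ChIP library, were analysed. Groups were taken from the sample titles. The build was hg19, and the tools named were deepTools 3.5.4, Bowtie2 2.2.1 and CASAVA 1.8.2, per the submitters' processing notes. Peak names begin with MACS, per the file headers and rows, and the caller's settings, the use of input and the selection of listed peaks were not given in the sources used here. The authors' score per peak is headed as a p-value, its transform is not stated, and it was used to rank or describe peaks within a list.

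Starts were converted to the first base a genome browser shows. Gaps are the bases between edges. For each near peak, the Pol II peak with the most shared bases, or else the nearest, was taken. Near peaks and lists were chosen with earlier results of these data known. Regions were named by a fixed rule: the 10 highest-scored and 10 widest near peaks, loci of 3 or more, and the 3 peaks on each side of the threshold. Single near peaks and those under wide Pol II peaks or overlapping DMSO Pol II were named after their values were seen. Gap and grouping functions were tested on simulated data. The planned counts in exons, at gene starts and over gene lists were not computed, as the gene table at hand was on another build. Python 3.11.15, NumPy 2.4.6, pandas 2.3.3, SciPy 1.17.1 and matplotlib 3.10.9 were used.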

Additional observations from a re-analysis of the deposited data

How the results depend on the processing

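Alternatives gave 82 values for 9 results. The main interval, or for counts a range of 1.5 times, held 47 of them and not the other 35. The number and share of near peaks follow the distance chosen. They were 184 (9.52%) for overlap only, 166 (8.59%) for at least 50% of the shorter peak, 10.5% within 100 bp, 12.5% within 500 bp, 17.9% within 2000 bp and 455 (23.6%) within 5000 bp. With Pol I scores of 100 or more they were 115 of 317 (36.3%), with Pol II scores of 100 or more 89 (4.61%), and with Pol I peaks joined into loci 180 of 1507 (11.9%). Among near peaks with a score of 100 or more, the median width was 533 bp, the median score 223.8, the median gap to the next Pol I peak 176 bp, the share within 1000 bp of DMSO Pol I 2.61% and the share in Pol II runs 5.22%. With 1 peak per locus the median width was 236 bp, the score 72.3, the gap 191472 bp and the share in runs 5.49%. Without loci of 3 or more near peaks, an alternative chosen after the data were seen, the width was 226 bp, the score 68.98, the gap 168040 bp, the share in runs 5.35% and the median width of the nearest Pol II peak 270 bp. The last 2 settings lengthen the gap by construction. With runs of at least 20 peaks the share in runs was 1.03%. For overlapping near peaks only, 4.89% lay within 1000 bp of DMSO Pol II. Overlap with DMSO peaks in place of nearness gave 2.07% for Pol II and 0% for Pol I, and a distance of 5000 bp gave 19.7% and 20%. For the shifts that these definitions do not fix, the cause was not tested. The share near DMSO Pol I was lower for near peaks than for the others under each alternative except overlap, where both are 0. With 1 peak per locus, and without loci of 3 or more near peaks, the interval for near peaks overlapped the main interval of the others. Leaving out peaks within 1 Mb of a chromosome's longest peak-free stretch, also chosen after the data were seen, kept all 7 results over near peaks within their main intervals.

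Alternatives for exons and gene starts were not run for want of an hg19 annotation. No paired analysis was possible because each group has 1 library and no result comes from a test. Read depth is unknown, so absence from a list does not show absence of a polymerase, and a weak Pol II peak beside a strong Pol I peak cannot be told from a difference in depth or enrichment between the 2 libraries.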
